A study of Mus musculus with 6 samples.

Results

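The mRNAs of 7 subunits of the GABA-A receptor, Gabra2, Gabra3, Gabra4, Gabra5, Gabrb1, Gabrb2 and Gabrd, were followed in cultured cortical neurons from Fmr1-KO and WT mice. They were taken by gene name from the deposited table of raw counts, and 7 of its 55367 rows were members. RNA was sequenced from 3 WT and 3 Fmr1-KO libraries, all on the C57BL/6J strain. Cortex was taken from pups at postnatal day 1 (P1), and the cells were grown for 2 days in vitro. Per the methods, ACSA2+ astrocytes and myelin had been depleted before plating. RNA of astrocyte and oligodendrocyte lineage markers was still present in the libraries, at levels given below. By the labels the groups differed in genotype, with no treatment named for either. Fmr1-KO mice lack FMRP, an RNA-binding protein whose loss underlies fragile X syndrome. How many pups went into a library, and of which sex, is not given in the sources used here. The study describes the samples of each genotype as independent, without saying whether they differed by animal, litter or culture, and P values measure the spread between these libraries.

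GABA-A receptors are chloride channels opened by GABA, the main inhibitory transmitter of the adult brain. Each is a ring of homologous subunits, most often α and β subunits together with a γ or a δ subunit, and the subunits that are present set where the receptor sits and which drugs act on it. Receptors with a γ subunit mostly serve synapses, while receptors with α5, or with α4 and δ, carry much of the tonic current outside synapses. In rodent cortex the α2, α3 and α5 subunits are prominent around birth, whereas α4, β2 and δ become prominent later as circuits mature. Gabra2, Gabra3 and Gabra5 are therefore called early subunits here, and Gabra4, Gabrb2 and Gabrd late subunits. Gabrb1 was placed in neither group. In immature neurons chloride is high, and opening these channels can depolarize the cell.

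Total counts ran from 30348556 to 35126207 per library. Fmr1 itself had 3656 to 4113 counts in WT and 1761 to 1972 counts in Fmr1-KO libraries, lower in each library labelled Fmr1-KO. Differential expression was tested with edgeR's quasi-likelihood test across 16976 genes, and a gene was called at a Benjamini-Hochberg adjusted P under 0.05. Changes were widespread in this comparison: 21.9% of tested genes were called lower and 20.7% higher in Fmr1-KO relative to WT. Together these were 42.6% of tested genes. These shares are the background for the counts below that come from this fit. Counts under other settings have other backgrounds. Scaling libraries on 18 pan-neuronal markers instead gave 505 genes lower and 14315 higher of the 16976 tested, the background for counts with that scaling. Levels are given in CPM, counts scaled to an equal library size with TMM, a normalization that assumes most genes to be unchanged. In bulk RNA, fewer cells of a type and less RNA per cell cannot be told apart.

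All 7 members passed the filter on low counts. Of these, 5 were called lower in Fmr1-KO relative to WT and 0 higher by edgeR. However, the values of 3 of the 5 (Gabra3, Gabra4 and Gabrb2) were above 0 when libraries were scaled on pan-neuronal markers instead. With that scaling Gabra3, at 0.06, was not called, while Gabra4 and Gabrb2 were called higher, as were 14315 of 16976 tested genes. Gabra2 was the only member with an unadjusted P under 0.05 for a higher level, and its call depended on the setting. The median log2 fold-change of the members was -0.40, beside 0.01 over all tested genes. In the same 5 members the highest Fmr1-KO library was under the lowest WT library, a pattern found in 26.3% of tested genes. The opposite order was seen in 25.4% of tested genes and in 0 members, so 51.7% of tested genes had genotypes that did not overlap. With a fold change above 1.2 required, 4 members were lower and 0 higher, beside 7.89% and 5.2% of tested genes. The size of the change differed widely among members, from a fall to 22.7% of the WT level for Gabrd to no call for Gabrb1 and Gabra2.

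**Figure D1:**
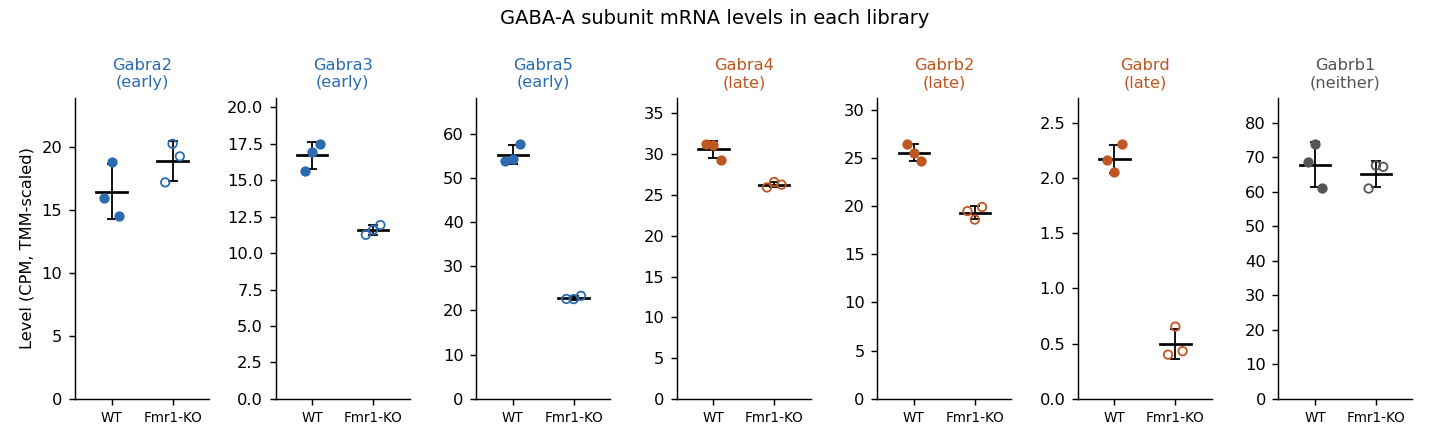
Level of each of the 7 subunit mRNAs in CPM (y axis, from 0, with its own scale per gene) in the 3 WT (filled) and 3 Fmr1-KO (open) libraries, with the mean and SD. Gabra3, Gabra5, Gabra4, Gabrb2 and Gabrd show no overlap between genotypes on this scale, with Fmr1-KO lower, whereas Gabra2 and Gabrb1 overlap. Scaled on pan-neuronal markers, Gabra3 (0.06, not called), Gabra4, Gabrb2 and Gabrb1 have log2 fold-changes above 0.

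Among the early subunits, Gabra5 changed most. This gene encodes α5, which is abundant in hippocampus and deep cortical layers and is tied to tonic inhibition. It lies on the minus strand of chromosome 7 from 57407672 to 57510059 (GRCm38). It had 1871, 1796 and 1926 counts in WT replicates 1, 2 and 3, and 735, 691 and 811 counts in Fmr1-KO. The WT libraries stood far above the Fmr1-KO libraries, and the libraries of a genotype lay close together. In CPM it fell from 55.3 ± 2.11 to 22.8 ± 0.417 CPM (SD, 3 libraries each). The log2 fold-change was -1.28 (SE 0.05, 95% interval -1.37 to -1.18), with an adjusted P of 1.02e-14 by edgeR, so that Gabra5 was at 41.3% of the WT level. With pan-neuronal scaling the log2 fold-change was -0.69 (adjusted P 3.41e-20), still lower but short of 2-fold. A called fall of at least 2-fold was found in 2.06% of tested genes.

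Gabra3, which encodes α3, fell less. It lies on the minus strand of chromosome X from 72432681 to 72656848 and had 544, 561 and 584 counts in WT against 366, 355 and 415 in Fmr1-KO. Every Fmr1-KO library was below every WT library. The level went from 16.7 ± 0.952 to 11.6 ± 0.336 CPM (SD, 3 libraries each). edgeR gave a log2 fold-change of -0.53 (SE 0.07, adjusted P 2.16e-06), and 0.06 (adjusted P 0.461) when scaled on pan-neuronal markers. Xist, the RNA of the inactive X chromosome, moved with genotype too, from 298 to 312 CPM in WT to 825 to 1017 CPM in Fmr1-KO. The 557 tested genes on chromosome X had a median log2 fold-change of 0.01. The Xist difference concerns the whole comparison of genotypes. The part of sex composition in the Gabra3 value, or in that of any other gene here, was not tested.

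Gabra2 was the early subunit that did not pass the threshold. This gene encodes α2, a subunit of perisomatic and axon initial segment synapses, and lies on the minus strand of chromosome 5 from 70957597 to 71095849. The counts were 555, 623 and 485 in WT and 559, 620 and 670 in Fmr1-KO. WT replicate 2 reached above Fmr1-KO replicate 1, so the genotypes overlapped. Its level was 16.4 ± 2.19 CPM in WT and 18.9 ± 1.56 CPM in Fmr1-KO (SD, 3 libraries each). The log2 fold-change of 0.20 (SE 0.08, 95% interval 0.03 to 0.37) had an unadjusted P of 0.0233 and an adjusted P of 0.0539 by edgeR. Without WT replicate 2 the log2 fold-change was 0.31 (adjusted P 0.00274) and without Fmr1-KO replicate 1 it was 0.26 (adjusted P 0.0225), while without WT replicate 3 it was 0.12 (adjusted P 0.271). DESeq2 gave an adjusted P of 0.101. Scaled on pan-neuronal markers, Gabra2 was called higher, at 0.79 (adjusted P 7.89e-18 by edgeR), as were 14315 of 16976 tested genes.

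Among the late subunits, Gabrd changed most. It encodes δ, which replaces γ in extrasynaptic receptors of high GABA affinity, and lies on the minus strand of chromosome 4 from 155384980 to 155398112. It was the rarest member, with 75, 68 and 77 counts in WT and 13, 20 and 15 counts in Fmr1-KO. The genotypes were far apart in spite of these small counts. The mean dropped from 2.17 ± 0.126 CPM to 0.495 ± 0.138 CPM (SD, 3 libraries each). The edgeR estimate was a log2 fold-change of -2.14 (SE 0.21, adjusted P 5.47e-08), and its 95% interval from -2.59 to -1.69 was the widest of the 7. With pan-neuronal scaling it was -1.56 (adjusted P 2.52e-09 by edgeR).

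Gabrb2, which encodes β2, the β subunit of much of the adult receptor, lies on the plus strand of chromosome 11 from 42419757 to 42629028. It had 919, 843 and 823 counts in WT and 633, 569 and 692 counts in Fmr1-KO, with no overlap once scaled to depth. Its level went from 25.5 ± 0.890 to 19.3 ± 0.664 CPM (SD, 3 libraries each). edgeR gave a log2 fold-change of -0.40 (SE 0.06, adjusted P 5.20e-06), and 0.18 (adjusted P 0.00854) when scaled on pan-neuronal markers.

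Gabra4, which encodes α4, the usual partner of δ in the forebrain, moved least among the called members. It lies on the minus strand of chromosome 5 from 71569749 to 71658308. The WT libraries had 1087, 1030 and 979 counts and the Fmr1-KO libraries 843, 814 and 914. In CPM, the lowest WT library (29.3) was still above the highest Fmr1-KO library (26.6). The mean went from 30.6 ± 1.09 to 26.3 ± 0.333 CPM (SD, 3 libraries each), and edgeR put the log2 fold-change at -0.22 (SE 0.05, adjusted P 0.00116). With pan-neuronal scaling it was 0.37, and with a fold change above 1.2 required, Gabra4 was not called. The mRNAs of α4 and δ, which assemble together, differed in the size of their change, with 95% intervals of -0.32 to -0.12 and -2.59 to -1.69.

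Gabrb1, which encodes β1, did not pass the threshold. It lies on the plus strand of chromosome 5 from 71658113 to 72149037 and had the most counts of the 7. These were 2381, 2441 and 2035 in WT and 1980, 2068 and 2337 in Fmr1-KO. The genotypes overlapped, at 67.8 ± 6.46 CPM in WT and 65.2 ± 3.74 CPM in Fmr1-KO (SD, 3 libraries each). By edgeR it was at -0.06 on the log2 scale (SE 0.05, adjusted P 0.444), and the 95% interval ran from -0.17 to 0.06. Without WT replicate 3 it was -0.13 (adjusted P 0.0486) and without WT replicate 2 it was 0.01 (adjusted P 0.917), so leaving out WT replicate 3 took it past the threshold and leaving out WT replicate 2 turned its sign. With pan-neuronal scaling Gabrb1 was called higher, at 0.53 (adjusted P 1.30e-16 by edgeR), as were 14315 of 16976 tested genes.

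To compare levels between genes, RPKM values were computed, which are the CPM divided by the kilobases of the gene's annotated exons. The order of genes depends on this length. Annotated exons cover 6083 bases in Gabra4, 6360 in Gabrb2 and 13838 in Gabrb1, against 4108, 3989 and 13737 in their longest transcripts. The order and overlaps below are therefore those for the annotated exons and can differ with another length. In WT, Gabra5 stood first at 18.6 ± 0.711 RPKM (SD, n = 3). Gabra4 (5.03), Gabrb1 (4.90), Gabra3 (4.26) and Gabrb2 (4.01) followed, and in this order the library ranges of each pair of neighbours overlapped. Gabra2 (2.15) and Gabrd (0.756) were lowest and did not overlap with their neighbours. In Fmr1-KO, Gabra5 was still first, at 7.68 ± 0.140 RPKM (SD, n = 3), followed by Gabrb1 (4.71), Gabra4 (4.32), Gabrb2 (3.04), Gabra3 (2.95), Gabra2 (2.47) and Gabrd (0.172). There, the ranges of Gabrb2 and Gabra3 alone overlapped.

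The early and late subunits were then set side by side within each library. The early subunits summed to 24.2, 25.1 and 25.8 RPKM in the WT libraries and 12.7, 13.2 and 13.4 RPKM in the Fmr1-KO libraries, whose mean was 52.4% of WT. The late subunits summed to 9.80 ± 0.276 RPKM in WT and 7.53 ± 0.0672 RPKM in Fmr1-KO (SD, 3 libraries each), or 76.8% of WT. As a share of the 7 members, the late subunits made up 25.6%, 24.5% and 24.0% in the WT libraries and 30.4%, 29.4% and 29.4% in the Fmr1-KO libraries. The share of the late subunits was therefore higher in every Fmr1-KO library. The share of Gabra5 alone was 46.8% ± 1.84 in WT and 30.3% ± 0.636 in Fmr1-KO (SD, 3 libraries each).

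With Gabra5 left out of the sum, an alternative chosen after seeing the data, the direction turned. The late subunits then made up 47.7%, 44.8% and 46.9% of the other 6 members in WT and 43.9%, 41.8% and 42.2% in Fmr1-KO. Without division by length the genotypes overlapped, at 27.2% ± 0.818 and 28.0% ± 0.903 (SD, 3 libraries each). No P is given for these shares, since they are scores over chosen members. Both groups held members with large and small changes: in log2 fold-change the early subunits ran from -1.28 to 0.20 and the late subunits from -2.14 to -0.22.

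**Figure D2:**
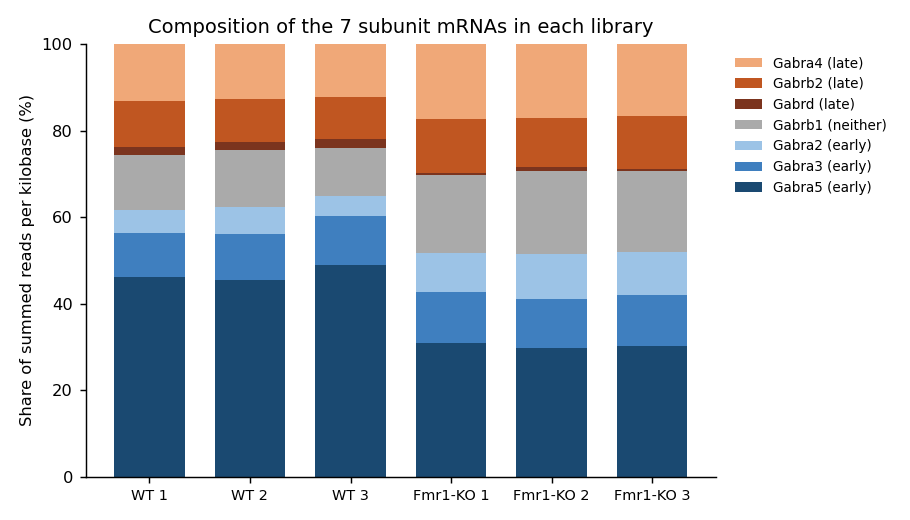
Share of each subunit mRNA (y axis, %) in the summed reads per kilobase of the 7 members, with 1 bar per library. Blue shades are early subunits, orange shades late subunits and grey is Gabrb1. Gabra5 takes 45.4% to 48.9% of the WT bars and 29.6% to 30.9% of the Fmr1-KO bars, and Gabrd is a thin band in all 6.

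The 4 α members were also taken alone. Gabra5 made up 61.9% ± 1.46 of their summed reads per kilobase in WT and 44.1% ± 0.791 in Fmr1-KO (SD, 3 libraries each). The share of Gabra2 was 7.17% ± 0.978 in WT and 14.2% ± 0.920 in Fmr1-KO, and that of Gabra4 16.8% ± 0.904 and 24.8% ± 0.371 (SD, 3 libraries each). For Gabra3 it was 14.2% ± 0.506 and 17.0% ± 0.177. A share depends on the other genes in the sum, of which Gabra5 was the largest and fell most. In RPKM, Gabra3 went down from 4.26 to 2.95 and Gabra4 from 5.03 to 4.32, and Gabra2 was not called on the TMM scale.

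Further subunits of the receptor were examined from a list of 9 genes. Of these, 6 were tested, 1 was called lower and 0 higher by edgeR, with a median log2 fold-change of -0.06. With pan-neuronal scaling 0 were lower and 2 higher, beside 505 and 14315 of 16976 tested genes. The gene called lower was Gabrg3, which encodes γ3 and went from 19.4 ± 1.39 to 14.2 ± 0.523 CPM (SD, 3 libraries each), a change of -0.45 on the log2 scale (SE 0.07, adjusted P 1.42e-05 by edgeR). Gabrg1 had a log2 fold-change of -0.02 (95% interval -0.14 to 0.11). Gabre, Gabrq, Gabrr1 and Gabrr2 had means of 0.237 to 0.551 CPM in either genotype and wide intervals, with log2 fold-changes of -0.17, -0.11, 0.11 and 0.58. Gabra6, the cerebellar α6, had 0 counts in all 6 libraries, which allows up to 0.0989 CPM in the smallest library for counting error only. Gabrp had 1 count in WT replicate 3 and 0 elsewhere, and Gabrr3 had 5, 2 and 1 counts in Fmr1-KO and 0 in WT. Neither was tested.

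**Figure D3:**
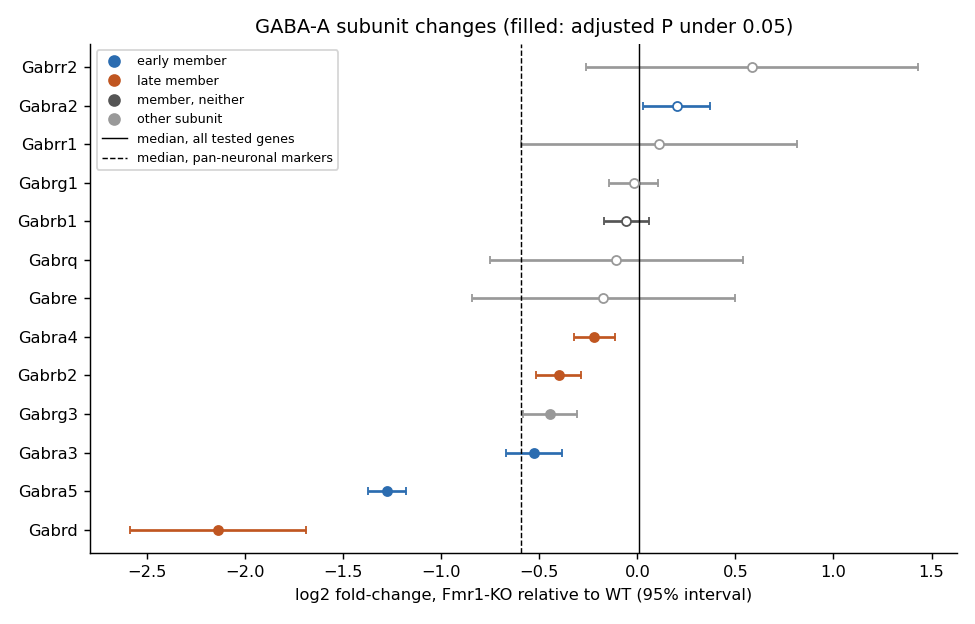
Log2 fold-change in Fmr1-KO relative to WT (x axis) with its 95% interval for 13 tested GABA-A subunits (y axis). Filled points have an adjusted P under 0.05, the solid line is the median of all tested genes (0.01) and the dashed line that of pan-neuronal markers (-0.59). Gabrd and Gabra5 lie left of the dashed line with their whole intervals. Gabra3, Gabra4, Gabrb1 and Gabrb2 have values right of it. When scaled on those markers, Gabra4, Gabrb1 and Gabrb2 turn above 0, and Gabra3, at 0.06, is not called.

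Most GABA-A subunit genes lie in clusters, and the values differed among genes of a cluster. On chromosome 5, Gabrg1, Gabra2, Gabra4 and Gabrb1 span 1398 kilobases, and their log2 fold-changes were -0.02, 0.20, -0.22 and -0.06. Gabra4 and Gabrb1 are transcribed from opposite strands, and their 5′ ends overlap by 196 bases in the annotation. Their RefSeq start sites, at 71658308 and 71657921, differ by 387 bases. That of Gabrb1 lies inside Gabra4, so the genes overlap by these starts too. Gabra4 was called lower on the TMM scale and Gabrb1 was not, with 95% intervals of -0.32 to -0.12 and -0.17 to 0.06 that overlap each other. On chromosome 7, Gabra5 lies next to Gabrg3, and its 95% interval (-1.37 to -1.18) was below that of Gabrg3 (-0.58 to -0.31). On chromosome 11, Gabrb2 lies beside Gabra6, which had 0 counts. On chromosome X, Gabre and Gabrq, on either side of Gabra3, were not called, with 10 to 26 counts per library.

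**Figure D4:**
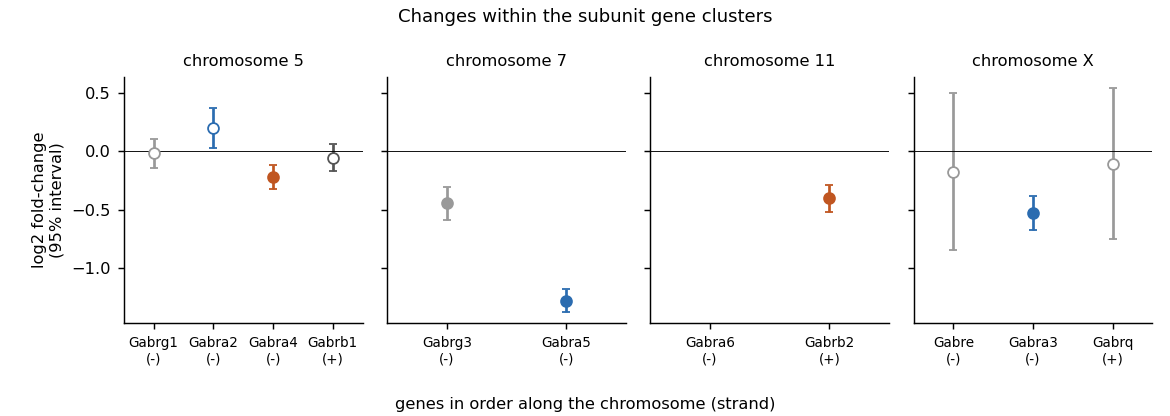
Log2 fold-change with 95% interval (y axis) of the subunit genes in their order along chromosomes 5, 7, 11 and X (x axis, strand in parentheses); filled points have an adjusted P under 0.05, and Gabra6, at 0 counts, has no point. Values on chromosome 5 lie between -0.22 and 0.20, and Gabra5 at -1.28 is below Gabrg3. With pan-neuronal scaling Gabra3 (0.06, not called), Gabra4, Gabrb1 and Gabrb2 are above 0.

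The 250 bases before the start site are shown for 3 members that behaved differently, Gabra5 with a large fall, Gabra2 with a value above 0, and Gabrb2 in between. RefSeq start sites on GRCm38.p6 were given for 6 of the 7 members, and Gabrd had no entry. The windows are chr7:57510060-57510309 on the minus strand for Gabra5, chr5:71095850-71096099 on the minus strand for Gabra2 and chr11:42420190-42420439 on the plus strand for Gabrb2, the most upstream of its 3 listed starts and inside the GENCODE span of the gene. Each is written 5′ to 3′, and capitals mark a GC box (GGGCGG) or a TATA box (TATAAA) on either strand.
Gabra5: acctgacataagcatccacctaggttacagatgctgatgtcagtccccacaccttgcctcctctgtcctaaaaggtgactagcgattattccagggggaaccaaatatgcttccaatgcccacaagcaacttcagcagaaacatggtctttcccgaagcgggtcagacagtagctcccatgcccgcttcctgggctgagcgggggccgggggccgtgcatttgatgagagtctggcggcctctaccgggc
Gabra2: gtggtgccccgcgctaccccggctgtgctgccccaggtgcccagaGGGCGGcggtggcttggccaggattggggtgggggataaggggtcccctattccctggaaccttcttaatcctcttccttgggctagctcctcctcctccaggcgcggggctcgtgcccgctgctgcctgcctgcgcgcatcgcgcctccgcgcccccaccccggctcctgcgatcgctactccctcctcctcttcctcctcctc
Gabrb2: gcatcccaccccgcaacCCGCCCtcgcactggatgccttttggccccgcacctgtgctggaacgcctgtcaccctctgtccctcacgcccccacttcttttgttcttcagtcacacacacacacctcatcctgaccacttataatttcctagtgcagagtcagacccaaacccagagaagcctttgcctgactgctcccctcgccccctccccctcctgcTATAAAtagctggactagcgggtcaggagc

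The Gabra5 window held neither motif and had 9 CpG dinucleotides. That of Gabra2 had 18 CpG dinucleotides and 1 GC box, which starts at position -205 counted back from the start site. The Gabrb2 window had 8 CpG dinucleotides, a GC box at -233 and a TATA box at -30. Of all 32851 RefSeq windows of this length, 32.7% held a GC box and 12.4% a TATA box, on either strand. A cAMP response element (TGACGTCA, in 1.55% of windows) and an EGR site (GCGTGGGCG, in 0.536%) had no match in the 10 windows of the 6 members. Gabra4 had 2 GC boxes. Both overlapping windows of Gabra3 held the same match to the TATA box letters, on the strand opposite to the gene, at -235 and -123. These matches describe letters in these windows and are not binding data.

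The genes that hold, move and supply the receptor were taken from further lists. Of 22 genes for anchoring and trafficking, 15 were called lower and 2 higher by edgeR, with a median log2 fold-change of -0.15. The largest falls were those of Nsf (-0.45, adjusted P 9.63e-10), the ATPase of membrane fusion, Trak2 (-0.42, adjusted P 3.65e-09), an adaptor of kinesin transport, and Shisa7 (-0.42, adjusted P 2.42e-08), an auxiliary subunit of GABA-A receptors. Gphn, which encodes the scaffold gephyrin, had -0.16 (adjusted P 0.00168 by edgeR) and went from 75.3 ± 2.56 to 67.6 ± 0.202 CPM (SD, 3 libraries each). Hap1 (0.30, adjusted P 1.67e-06), which aids recycling of the receptor, and Rdx (0.09, adjusted P 0.0282), which encodes radixin, the anchor of α5 receptors outside synapses, were the 2 called higher. Rdx was not called without WT replicate 1, without WT replicate 3 or without Fmr1-KO replicate 2, which left 1 gene called higher in each of these fits. With a fold change above 1.2 required, 3 genes of this list were lower and 0 higher, beside 7.89% and 5.2% of tested genes. With pan-neuronal scaling all 22 were higher, as were 14315 of 16976 tested genes.

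Of 8 genes for GABA synthesis, transport and breakdown, 7 were tested, 4 were called lower and 1 higher. The vesicular transporter Slc32a1 had a log2 fold-change of -0.53 (SE 0.05, adjusted P 8.16e-08 by edgeR) and the transporter Slc6a13 -0.66 (SE 0.15, adjusted P 0.000982). The glutamate decarboxylases that make GABA moved apart, with -0.24 for Gad1 (adjusted P 2.19e-05) and 0.17 for Gad2 (adjusted P 0.00071). Abat (-0.20) was also lower, while Slc6a11 (-0.01) and Aldh5a1 (0.03) did not pass the threshold, and Slc6a12 had too few counts to be tested. With pan-neuronal scaling 0 genes of this list were lower and 5 higher, beside 505 and 14315 of 16976 tested genes.

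Slc12a5, which encodes the chloride extruder KCC2 of maturing neurons, fell from 36.3 ± 1.24 to 17.1 ± 0.521 CPM (SD, 3 libraries each). By edgeR this was -1.09 on the log2 scale (SE 0.05, adjusted P 1.01e-12), near the -1.28 of Gabra5. With pan-neuronal scaling 1 gene of the chloride transporter pair was lower and 1 higher, beside 505 and 14315 of 16976 tested genes. Slc12a2, which encodes the chloride importer NKCC1, had -0.05 (SE 0.03, adjusted P 0.227). The metabotropic GABA-B receptor genes were both called lower, with -0.15 for Gabbr1 (adjusted P 0.000183) and -0.65 for Gabbr2 (adjusted P 3.26e-12 by edgeR). With pan-neuronal scaling 0 of these were lower and 1 higher, beside the same 505 and 14315 genes.

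Markers of cell types moved with genotype as well. Of 18 pan-neuronal markers, 15 were called lower and 2 higher, with a median log2 fold-change of -0.59, and their summed level was 6410 to 6572 CPM in WT and 5301 to 5565 CPM in Fmr1-KO. Single markers ran from -1.90 for Nefl to 0.41 for Elavl4, so scaling on their median rests on a wide spread. Scaled on these markers, Gabrd and Gabra5 were still called lower and 4 members were called higher, beside 505 and 14315 of 16976 tested genes. The median of all tested genes moved by 0.59 on the log2 scale. Proliferating cell markers were higher (12 of 12, 449 to 505 CPM summed in WT, 811 to 893 in Fmr1-KO), as were 5 of 10 neural progenitor markers (2446 to 2470 and 2766 to 2845 CPM), with 0 lower. Excitatory neuron markers (4 lower and 5 higher of 10, 877 to 888 and 860 to 892 CPM) and GABAergic interneuron markers (7 lower and 4 higher of 12, 861 to 893 and 884 to 971 CPM, 3 genes shared with the synthesis list) were split. Oligodendrocyte lineage markers (10 of 10, 2346 to 2551 and 1344 to 1448 CPM) and microglia markers (7 of 8, 237 to 253 and 148 to 165 CPM) were lower. Astrocyte markers (4 lower and 2 higher of 8, 5090 to 5211 and 4488 to 4861 CPM) and endothelial and mural cell markers (2 lower and 3 higher of 6 tested among 8, 241 to 264 and 396 to 412 CPM) were mixed. No marker was at 0 in all libraries. The part of cell composition in the subunit values was not tested.

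**Figure D5:**
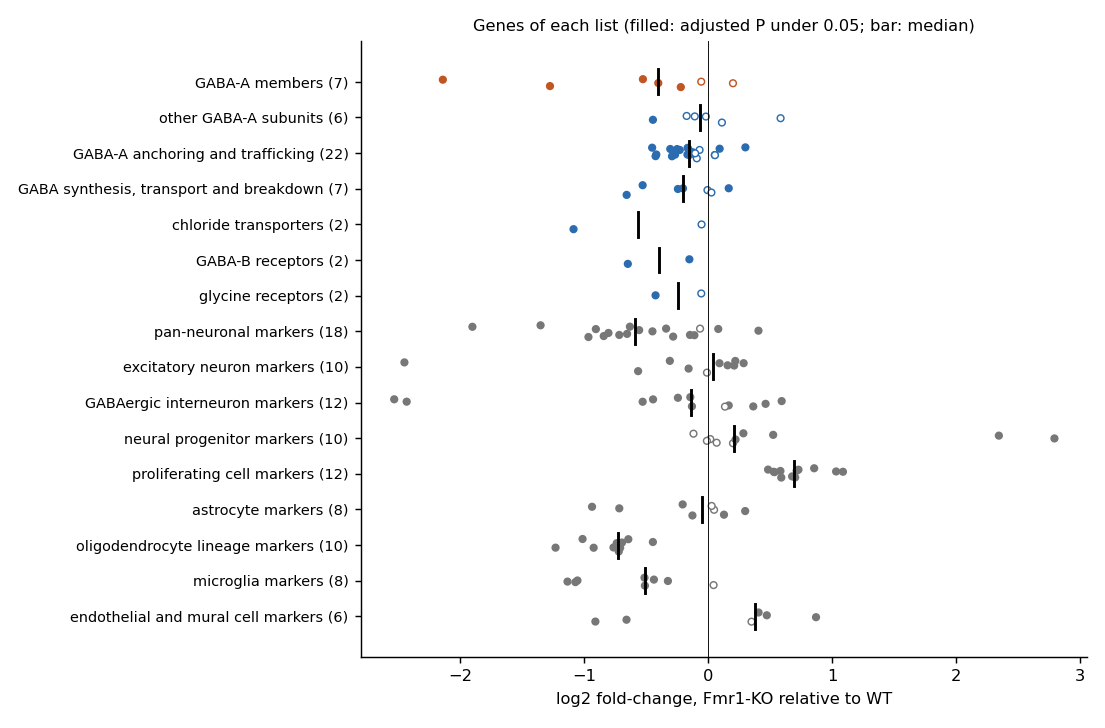
Log2 fold-change (x axis) of the tested genes in each list (y axis, number tested in parentheses); filled points have an adjusted P under 0.05 and the black bar is the median of the list. The GABA-A members have a median of -0.40, between that of pan-neuronal markers (-0.59) and 0, and proliferating cell markers lie on the right (0.69). Scaled on pan-neuronal markers, Gabra4, Gabrb1 and Gabrb2 turn above 0, and Gabra3, at 0.06, is not called.

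The genes whose profiles over the 6 libraries were most like each member were sought among 10757 genes with at least 10 CPM on average, by the root mean square difference of centred log2 CPM. For Gabra5 these were Rgs4 (0.0149), a regulator of G protein signalling, and Adcy1 (0.0431), a calcium-stimulated adenylyl cyclase, with log2 fold-changes of -1.26 and -1.28. Gabrd was closest to Met (0.151), a receptor tyrosine kinase, and Diras2 (0.205), a small GTPase, at -2.20 and -2.07. For Gabra3 they were the synaptic vesicle gene Syngr1 (0.0261) and Cnrip1 (0.0316), and for Gabrb2 the cadherin gene Cdh8 (0.0175) and the phosphodiesterase gene Pde10a (0.0226). Gabra4 was closest to Jmjd4 (0.00746) and Edem1 (0.0108), Gabrb1 to Epha5 (0.0233) and Dctd (0.0291), and Gabra2 to Rev3l (0.0389) and Esco1 (0.0403). These differences are descriptions over 6 libraries of 2 genotypes, which all profiles share. A gene picked in this way has a log2 fold-change near that of the member by construction.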

How the data were processed

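RNA was measured in 3 WT and 3 Fmr1-KO libraries, and groups follow the labels. Raw counts per gene name were deposited by the authors. Their methods give single-end reads, FastP for trimming, STAR with GRCm38.p6 for mapping, and exon counting by strand with featureCounts. By the submitters' processing notes the versions were STAR 2.7.6a and Subread 2.0.1, whereas the methods name a different Subread version. Counts by name do not separate isoforms.

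Genotypes were compared with edgeR 4.0.16 under R 4.3.3 (filterByExpr, TMM, glmQLFit, glmQLFTest, 2-sided, genotype as the only term) with Benjamini-Hochberg adjustment over all 16976 tested genes of 31650 with a count. Adjusted P values in the text come from it unless DESeq2 (1.42.0) is named. The SE is the log2 fold-change divided by the square root of F. Coordinates, exon unions and overlaps were taken from GENCODE M21 (GRCm38), which predates the authors' release, and promoters came from RefSeq (GRCm38.p6). On simulated counts for these genes, 91.4% of those changed by 1 log2 unit that passed the filter were called with the right sign, against 0.0542% of 16606 unchanged genes. The simulation changed only 200 genes, with random signs and 1 dispersion for all genes. In the data 42.6% of tested genes were called, so these rates do not carry over and the scaling is not tested by them.

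The members and gene lists were chosen with earlier results of these data known. Named genes were all members, all tested genes of lists of up to 12 genes other than markers, the 3 largest called changes in each direction of longer lists, and the 2 genes closest to each member. Gphn was named after its value had been seen. Some genes of these lists are not reported here. Pan-neuronal scaling set library sizes by the median ratio over 18 markers. The labels name no batch. Libraries within a genotype varied beyond sampling noise (chi-square per degree of freedom 2.93 in WT and 3.18 in Fmr1-KO). Intervals of fold-changes are model-based.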

Additional observations from a re-analysis of the deposited data

How the results depend on the processing

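The calls of Gabra3, Gabra5, Gabrb2 and Gabrd as lower held with DESeq2, a fold change above 1.2, a replicate block, RLE, upper-quartile normalization, scaling to totals, either change of filter and without each library, except that the stricter filter removed Gabrd. That of Gabra4 held in these except with a fold change above 1.2. Scaling on pan-neuronal markers moved all genes up by construction: 505 tested genes were then lower and 14315 higher, 2 members were lower (Gabra5 and Gabrd) and 4 higher. The 4 were Gabra2, Gabra4, Gabrb1 and Gabrb2, with log2 fold-changes of 0.79, 0.37, 0.53 and 0.18, and Gabra3 was not called at 0.060. The count of members called higher was 1 (Gabra2) with a replicate block, no filter, upper-quartile normalization and scaling to totals, and ran from 0 to 1 across the fits that each left out a library; the cause was not tested. In the fits that each left out a library, Gabrb1 ran from -0.13 to 0.0088, and 5 to 6 members were lower. Tested genes called higher numbered 3488 with a replicate block and 3432 with no filter. They numbered 3743 with upper-quartile normalization and 4207 with scaling to totals. With a fold change above 1.2 required, 1340 genes were lower and 883 higher, as a stricter test calls fewer genes, and 4 members stayed lower. Replicate numbers did not pair the libraries (correlations of same-numbered deviations -0.0289, 0.0323 and -0.0147); with a replicate block Gabra2 had 0.20 (adjusted P 0.0261 by edgeR).

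The share of late subunits moved with its definition: in WT and Fmr1-KO it was 30.7% and 36.7% with the longest transcript, 27.2% and 28.0% without division by length, 28.2% and 36.5% without Gabrb1, and 46.5% and 42.6% without Gabra5. Gabrd, at 13 to 77 counts per library, is the member whose size of change the depth limits most.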

Other observations

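Glycine receptors, chloride channels of the same family, were listed beside the GABA-A subunits. Of 5 genes, 2 were tested. Glrb, which encodes the β subunit that binds gephyrin, went from 59.3 ± 2.40 to 44.2 ± 0.807 CPM (SD, 3 libraries each) with a log2 fold-change of -0.42 (SE 0.04, adjusted P 3.82e-08 by edgeR), and Glra2, the α subunit of immature brain, had -0.06 (95% interval -0.18 to 0.07). With pan-neuronal scaling 0 were lower and 2 higher, beside 505 and 14315 of 16976 tested genes. Glra1, Glra3 and Glra4 had too few counts to be tested, at 0.00959, 0.403 and 0.0685 CPM on average in WT.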
